A study of Mus musculus with 8 samples.

Results

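The genes described here are 10 members of the S100 and annexin families in regulatory T cells (Tregs), out of 21524 gene symbols measured. They were 5 S100 genes (S100a4, S100a6, S100a10, S100a11 and S100a13) and 5 annexin genes (Anxa1, Anxa2, Anxa5, Anxa6 and Anxa7), matched by symbol, and all 10 were found. They were chosen by family and by presence in T cells, with the difference in expression between the IL-2 and control libraries known, so the measured values of this contrast entered the choice. Their own differences between the groups are therefore given as a description, without a test. The table held 30 S100 and annexin symbols in all, and the members include 9 of the 10 with the highest read counts, the exception being Anxa11.

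The study sequenced total RNA of Tregs that had been sorted by flow cytometry from mouse spleen, in strand-specific libraries. There were 4 libraries labelled IL-2 (41 to 44) and 4 labelled control (45 to 48), 1 library per sample. The design text speaks of a modified IL-2 with a longer half-life and a single dose of CTLA-4 Ig, which blocks T cell co-stimulation, in C57BL/6 recipients of BALB/c hearts or kidneys. For these 8 samples the labels give neither strain, genotype, sex and age, nor the form and dose of IL-2, the treatment of the controls, CTLA-4 Ig or a graft. It is also not stated that each library came from its own animal, so the errors below measure the spread between libraries, which may be technical.

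S100 proteins are small dimers that carry a pair of calcium-binding EF-hand loops and change shape when calcium enters a cell, so that they can grip target proteins. Annexins are a separate family that binds acidic phospholipids of membranes in the presence of calcium, and they act in membrane repair, vesicle traffic and the cortical cytoskeleton. The families meet in physical complexes: S100a10 binds the tail of annexin A2, and S100a11 that of annexin A1. In T cells, S100a4, S100a6, S100a10 and Anxa2 are known as transcripts that separate effector and memory cells from naive ones.

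Values are normalised read counts recovered from the deposited log2-scale values, as mean ± SD over 4 libraries per group. Estimated depth was 4953547 to 6399418 reads per library. The sort was checked on its defining markers: summed reads of 7 Treg and CD4 T cell markers ran from 39231 to 44548 in the IL-2 libraries and from 30064 to 31606 in controls, and the lowest library held 1123 normalised reads of Foxp3, 2067 of Cd4 and 2444 of Cd3e. Single markers went both ways: Cd4 was lower with IL-2 (2523 ± 354 against 4136 ± 299.6), Il2ra and Tnfrsf18 (2246 ± 303 against 1327 ± 154) were higher, and Foxp3 had 1883 ± 262 against 1537 ± 290.3. Without Il2ra, the most abundant of them, the means of the sums differed by 26.7 reads.

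**Figure D1:**
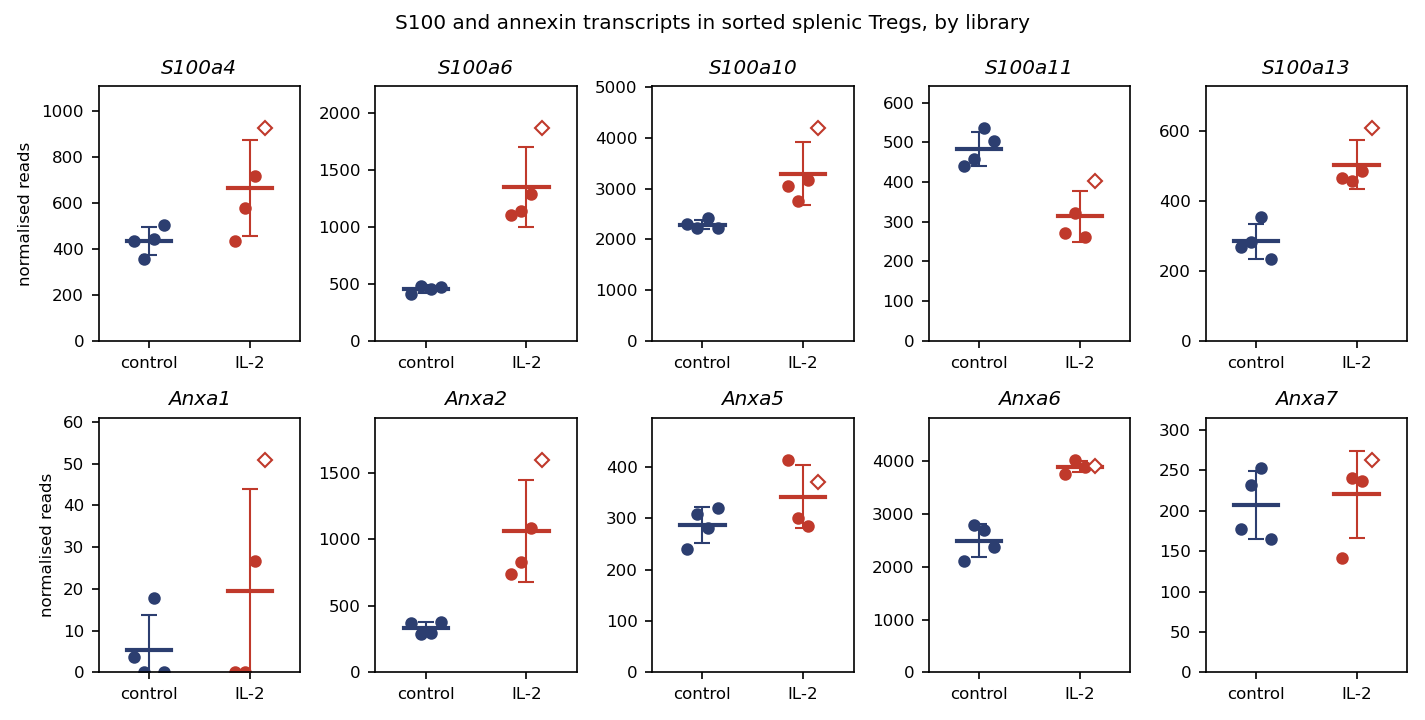
Normalised reads (vertical axes, each from 0) of the 10 genes in 4 control (blue) and 4 IL-2 (red) libraries; lines and bars are means ± SD, and the open diamond is IL-2 library 44. S100a6, Anxa2, Anxa6, S100a10 and S100a13 had separate groups with IL-2 above, S100a11 had separate groups with IL-2 below, and the other 4 overlapped.

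Compared per kilobase of transcript, S100a10 had the highest level of the 10 in both groups. It reached 4805 ± 908 reads per kilobase with IL-2 and 3347 ± 134 in controls, and its range did not overlap with that of any other member. In controls Anxa6 (1003 ± 125), S100a11 (946 ± 84.1) and S100a4 (869 ± 120) followed, with ranges that overlapped each other, and then S100a6 (624 ± 43.8), S100a13 (398 ± 69.9), Anxa2 (231 ± 32.1), Anxa5 (166 ± 20.2) and Anxa7 (72.6 ± 14.8), each with a range apart from its neighbours. With IL-2 the order was S100a6 (1851 ± 482), Anxa6 (1567 ± 44.4) and S100a4 (1331 ± 418), again overlapping, then Anxa2 (735 ± 265), S100a13 (705 ± 97.5) and S100a11 (615 ± 125), which overlapped each other, with Anxa2 also reaching into the range of S100a4, then Anxa5 (198 ± 35.0) and Anxa7 (77.3 ± 18.8). S100a11 thus moved from place 3 to place 7 and S100a6 from place 5 to place 2. Anxa1 was last in both groups. Lengths were those of 1 principal GENCODE transcript per gene, so this order is approximate.

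S100a6, or calcyclin, is a calcium sensor that is abundant in dividing cells and binds partners such as Cacybp. Its normalised reads were 1106, 1146, 1294 and 1867 in IL-2 libraries 41 to 44, and 410, 482, 459 and 472 in control libraries 45 to 48. Every IL-2 library lay above every control, and the controls lay close together. The means were 1353 ± 352 and 456 ± 32.0, 2.97-fold higher with IL-2, or 2.59-fold without library 44. S100a6 made up 21.9% ± 1.08 of the reads of the 5 S100 members with IL-2 and 11.6% ± 0.950 in controls.

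S100a4, which binds non-muscle myosin and is linked to cell motility, had 434, 578, 716 and 923 reads with IL-2 and 432, 356, 441 and 502 in controls. The groups overlapped, since IL-2 library 41 lay below controls 47 and 48, and the IL-2 libraries spread over a 2.13-fold range. The means were 663 ± 208 and 433 ± 60.0, 1.53-fold higher with IL-2 and 1.33-fold without library 44. An annotated locus that overlaps S100a4, Gm42674, shared 49.2% of its 31-base words, and it was listed at 0 in all 8 libraries.

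S100a10, also called p11, does not need calcium to take up its binding shape and joins with Anxa2 in a complex at the plasma membrane. It had 3050, 2756, 3174 and 4187 reads with IL-2 and 2305, 2230, 2418 and 2219 in controls. The groups did not overlap, and the controls lay within a 1.09-fold range. The means were 3292 ± 622 and 2293 ± 91.6, 1.44-fold higher with IL-2, or 1.31-fold without library 44.

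Anxa2 itself had 739, 833, 1086 and 1596 reads with IL-2 and 373, 289, 298 and 375 in controls. Its groups lay well apart, and with IL-2 the highest library held 2.16 times the lowest. The means were 1064 ± 384 and 334 ± 46.5, 3.19-fold higher with IL-2, the largest ratio among the 9 members other than Anxa1, or 2.65-fold without library 44. The partners in the complex thus differed in size of change. Per kilobase there were 14.7 ± 2.30 S100a10 reads for each Anxa2 read in controls and 6.85 ± 1.37 with IL-2, with no overlap between the groups. S100a10 remained the more abundant transcript of the pair in every library.

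**Figure D2:**
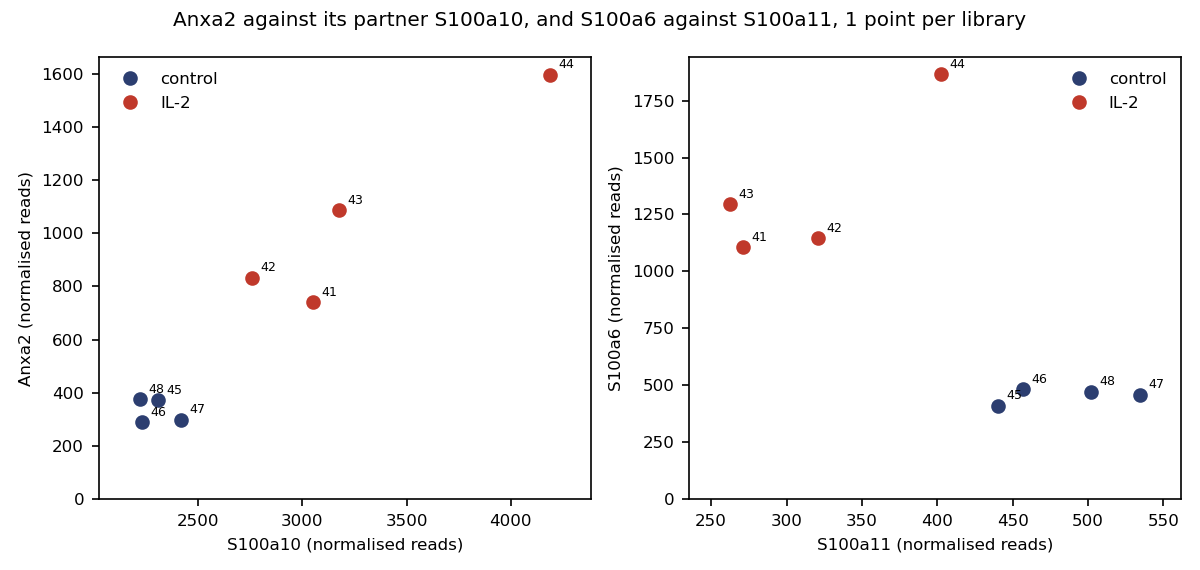
Left, Anxa2 against S100a10; right, S100a6 against S100a11, in normalised reads with 1 labelled point per library (blue control, red IL-2). The IL-2 libraries lie higher on both axes at left, while at right they lie higher for S100a6 and lower for S100a11.

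S100a11, a calcium-dependent partner of annexins A1 and A2, was the member with separate groups and lower values with IL-2. It had 271, 321, 263 and 403 reads with IL-2 and 440, 457, 535 and 502 in controls. Library 44 was again the highest of the IL-2 libraries but stayed below every control. The means were 314 ± 64.1 and 484 ± 43.0, so that controls were 1.54-fold higher, or 1.70-fold without library 44. There were 4.30 ± 0.602 S100a6 reads for each S100a11 read with IL-2 and 0.946 ± 0.0815 in controls. Processed copies of S100a11, among them Gm12854, hold 48.9% of its 31-base words, so its value may include reads of such copies and is uncertain.

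S100a13, which takes part in the release of proteins that lack a signal peptide, had 465, 458, 486 and 607 reads with IL-2 and 267, 281, 353 and 235 in controls. The groups did not overlap. The means were 504 ± 69.7 and 284 ± 49.97, 1.77-fold higher with IL-2 and 1.65-fold without library 44.

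Of the annexins, Anxa6, the member with a doubled core that binds membranes, Ras regulators and protein kinase C, was the most abundant. It had 3758, 4027, 3895 and 3922 reads with IL-2 and 2114, 2791, 2705 and 2379 in controls. The IL-2 libraries differed by only a 1.07-fold range, the narrowest IL-2 range among the 9 members with a fold. The means were 3901 ± 111 and 2497 ± 311, 1.56-fold higher with IL-2. Library 44 did not stand out for Anxa6.

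Anxa5, known for its use as a probe of exposed phosphatidylserine, had 414, 301, 284 and 372 reads with IL-2 and 241, 310, 282 and 319 in controls, and the groups overlapped. The means were 343 ± 60.7 and 288 ± 35.0. Anxa7, which binds the calcium protein sorcin (Sri), had 142, 241, 237 and 263 reads with IL-2 and 178, 231, 253 and 165 in controls, also overlapping, with means of 220 ± 53.7 and 207 ± 42.2. Against Anxa5, Anxa2 went from 1.18 ± 0.263 reads per read in controls to 3.17 ± 1.12.

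Anxa1, whose protein signals through the formyl peptide receptors and dampens inflammation, was nearly silent. It had 26.6 and 50.9 reads in IL-2 libraries 43 and 44 and 0 in 41 and 42, and among controls 3.63 in 45, 17.8 in 47 and 0 in 46 and 48. Each group thus had 2 libraries at 0, where up to 3 reads could be missed, and no fold is given. Its receptor genes Fpr1 and Fpr2 were listed at 0 in all 8 libraries.

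**Figure D3:**
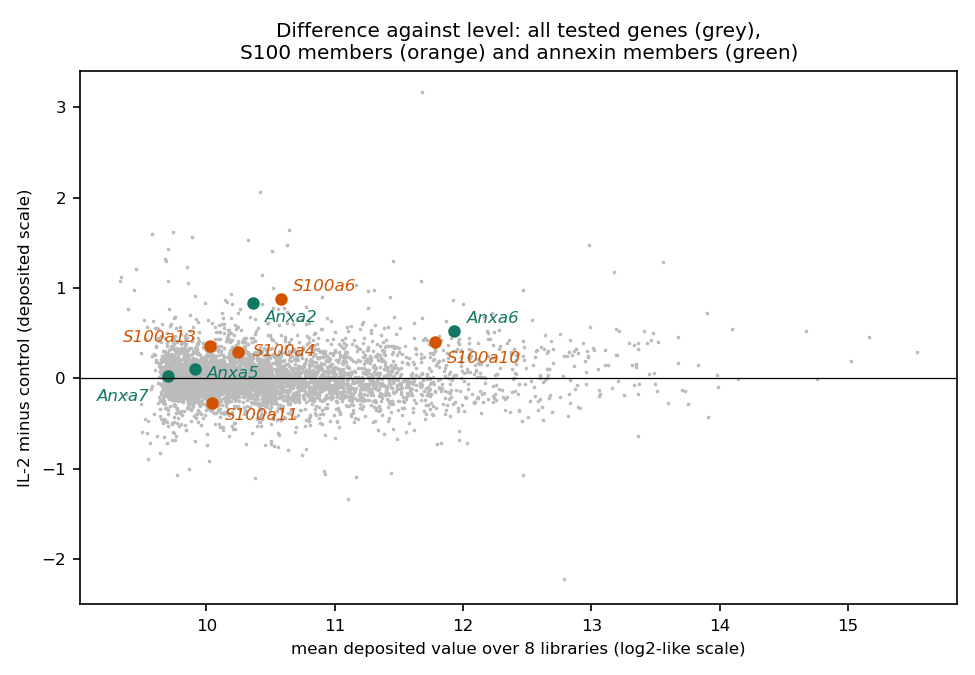
IL-2 minus control on the deposited log2-like scale (vertical) against the mean deposited value over 8 libraries (horizontal) for 5261 tested genes (grey), the 5 S100 members (orange) and 4 annexin members (green; Anxa1 was below the filter). S100a6 at 0.88 and Anxa2 at 0.84 stand highest, Anxa5 and Anxa7 lie near 0, and S100a11 at -0.28 is the member below 0.

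In the fit of all genes (limma with trend on the deposited values, Benjamini-Hochberg adjusted p under 0.05), 9 of the 10 members passed the filter on low values, and Anxa1 did not. Of the 9, 6 were counted as higher with IL-2, where 16.8% of all 5261 tested genes were, and S100a11 was counted as lower, where 14.6% were, so that 7 were counted in either direction beside 31.4% of all. Anxa5 and Anxa7 were counted in neither. The median difference of the 9 was 0.36 on the deposited scale, which understates folds, and that of all tested genes -0.01. In a fit on log2 reads with a lower filter, 5 members were counted as higher and 1 as lower, beside 10.9% and 9.07% of its 10777 genes. S100a4 was counted as higher in the fit on the deposited values but not in 11 of 15 other settings. The fit on log2 reads with the lower filter was among those 11. Because the members were chosen with this contrast known, nothing is read from these counts. Groups that did not overlap were seen for 5 members with IL-2 higher and 1 with IL-2 lower, beside 16.7% and 14.7% of tested genes.

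IL-2 library 44 held the highest of the 8 values for 7 of the 10 members (S100a4, S100a6, S100a10, S100a13, Anxa1, Anxa2 and Anxa7), as it did for 14.5% of tested genes. This library also stood apart in cell division: summed reads of 10 proliferation genes were 21934 in it, 11519 to 12353 in the other IL-2 libraries and 5652 to 7720 in controls. The part of proliferation in the members' values was not tested. Without library 44 the S100 and annexin folds kept their direction in the members with a fold other than Anxa7, which came to 0.997.

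Within groups the members did not all move together. Taken as deviations from the group means over the 8 libraries on the deposited scale, Pearson's r was 0.94 between S100a4 and Anxa2, 0.91 between S100a6 and S100a10, 0.90 between S100a6 and Anxa2 and 0.85 between S100a10 and Anxa2. It was near 0 for Anxa6 with S100a10 (0.00) and S100a4 (-0.07), and lowest between Anxa5 and Anxa7 (-0.40). These are descriptions over 8 libraries that share library 44 as an extreme, with no p.

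Genes most like each member were sought among the tested genes other than predicted genes and receptor gene segments. Only the 3 highest r of each search are given, and r over the 8 libraries also carries the difference between groups. These values are descriptions, with no p. The patterns most like that of S100a6 over the 8 libraries were those of Lgals1, which encodes galectin-1 (r = 0.99), Trat1, an adaptor of the T cell receptor (0.99), and Ncapg2, a condensin subunit (0.99). For Anxa2 they were Trat1 (0.99), Cox5b of the respiratory chain (0.99) and Lgals1 (0.98). For Anxa6 they were Ccnd3, a cyclin of the first gap phase, Ldha and Coro1c (0.99 each), and for S100a11 the cell cycle inhibitor gene Cdkn1b (0.97) with Asxl1 and Narf (0.97 and 0.96). On deviations from group means the nearest to S100a6 were Bub1b, of the spindle checkpoint, and the histone genes H2bc4 and H4c3 (0.98, 0.97 and 0.96), while Trat1, Lgals1 and H4c8 were nearest to Anxa2 (0.96, 0.96 and 0.95).

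Among the other tested members, S100a4 lay nearest to the proteasome subunit gene Psmb7 (0.98), Sec11a (0.97) and Bcl2l11 (0.93), and S100a10 to Hmgn5 (0.98), Tuba1c (0.97) and H4c14 (0.97). S100a13 lay nearest to Iqgap1, a scaffold of the actin cortex (0.98), Polr1d (0.97) and Fut8 (0.97). Anxa5 was nearest to Srsf2, Magoh and Hnrnpd (0.95, 0.91 and 0.88), and Anxa7 to H2ac25, Efcab14 and Slx9 (0.89 each). On deviations from group means the nearest genes were Psmb7, Septin11 and Gpbp1 for S100a4, Kpna2, Zfp91 and Fbh1 for S100a10, Hmgb1, Chfr and Mprip for S100a11, and Spag9, Ganab and Pygo2 for S100a13. For the annexins they were Arl6ip5, Dhx40 and Srsf2 for Anxa5, Eeig1, Lgals8 and Axin1 for Anxa6, and Kdm3a, Gnaq and Wwp2 for Anxa7. These values of r lay between 0.93 and 0.98.

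Most of the other S100 and annexin genes were not expressed. Of 20 family genes outside the members, 9 were at 0 in all 8 libraries, among them S100a2, S100a9 and S100b, and 7 more had under 10 reads in every library. S100a8, which with S100a9 marks neutrophils, had 0.948 reads in 1 library and 0 in the other 7. Anxa11 was the family gene outside the members that passed the main filter, at 479 ± 36.1 reads in the IL-2 libraries against 459 ± 60.9 (limma adjusted p = 0.724). Part of the Anxa11 transcript (23.3% of its 31-base words) is shared with other annotated genes. A fit on log2 of the reads plus 5, for the 10777 genes with at least 10 reads in at least 4 libraries, also took in S100a1, Anxa4 and Anxa9. Anxa4 stood at 93.8 ± 15.8 reads in the IL-2 libraries against 60.1 ± 34.7 (limma adjusted p = 0.166, but 0.0404 without control library 47), and Anxa9 18.9 ± 5.66 and 10.3 ± 6.02 (limma adjusted p = 0.280).

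S100a1, best known from muscle, where it regulates calcium handling, had 26.7, 22.9, 51.7 and 50.7 reads with IL-2 and 3.22, 4.45, 2.0 and 0 in controls, so every IL-2 library lay above every control. The means were 38.0 ± 15.3 and 2.42 ± 1.90, 15.7-fold higher with IL-2. S100a1 passed the lower filter through the 4 IL-2 libraries and 0 of the controls, so a gene kept in this way had to differ, and its values are given without a test. With few reads in controls the ratio is imprecise.

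S100a1 and the member S100a13 are neighbours on mouse chromosome 3 and are transcribed away from each other. Their RefSeq start sites lie 105 bases apart, and the 300-base promoter windows (250 bases before to 50 after the start) share 204 bases. The S100a13 window is shown because both genes had higher reads with IL-2. It lies at chr3:90514185-90514484 on the plus strand of GRCm38.p6, and capitals mark the 105 bases from the S100a1 start site up to that of S100a13.
S100a13 and S100a1: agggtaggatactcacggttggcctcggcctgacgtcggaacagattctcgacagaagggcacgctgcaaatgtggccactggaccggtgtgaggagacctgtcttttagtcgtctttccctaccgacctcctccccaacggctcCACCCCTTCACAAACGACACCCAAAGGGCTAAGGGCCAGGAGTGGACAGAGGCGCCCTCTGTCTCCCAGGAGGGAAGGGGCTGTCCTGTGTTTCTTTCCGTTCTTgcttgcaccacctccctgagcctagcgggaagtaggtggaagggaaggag
The S100a1 start lies at the first capital and its transcript runs leftward as printed. The S100a13 transcript runs rightward from the first lower-case base after the capitals. S100a1 had 38.0 reads for 504 of S100a13 with IL-2 and 2.42 for 284 in controls.

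The S100 members sit in 2 blocks of that chromosome in RefSeq order. The first block runs Ilf2, Snapin, Chtop, S100a1, S100a13, S100a14, S100a16, S100a3, S100a2, S100a4, S100a5, S100a6, S100a7a, S100a8 and S100a9. The members in it stood beside silent genes: S100a5, between S100a4 and S100a6, had at most 2.33 reads in any library, S100a3 at most 2.38, and S100a2, S100a16 and S100a9 had 0. Chtop, which flanks S100a1, stood at 904 ± 147 reads in the IL-2 libraries against 778 ± 62.6 (limma adjusted p = 0.221). In the second block S100a11 and S100a10 lie next to each other with a pseudogene between them, and had their groups apart in opposite directions. Their flanking genes Tchhl1 and Tdpoz2 had under 2 reads in every library.

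**Figure D4:**
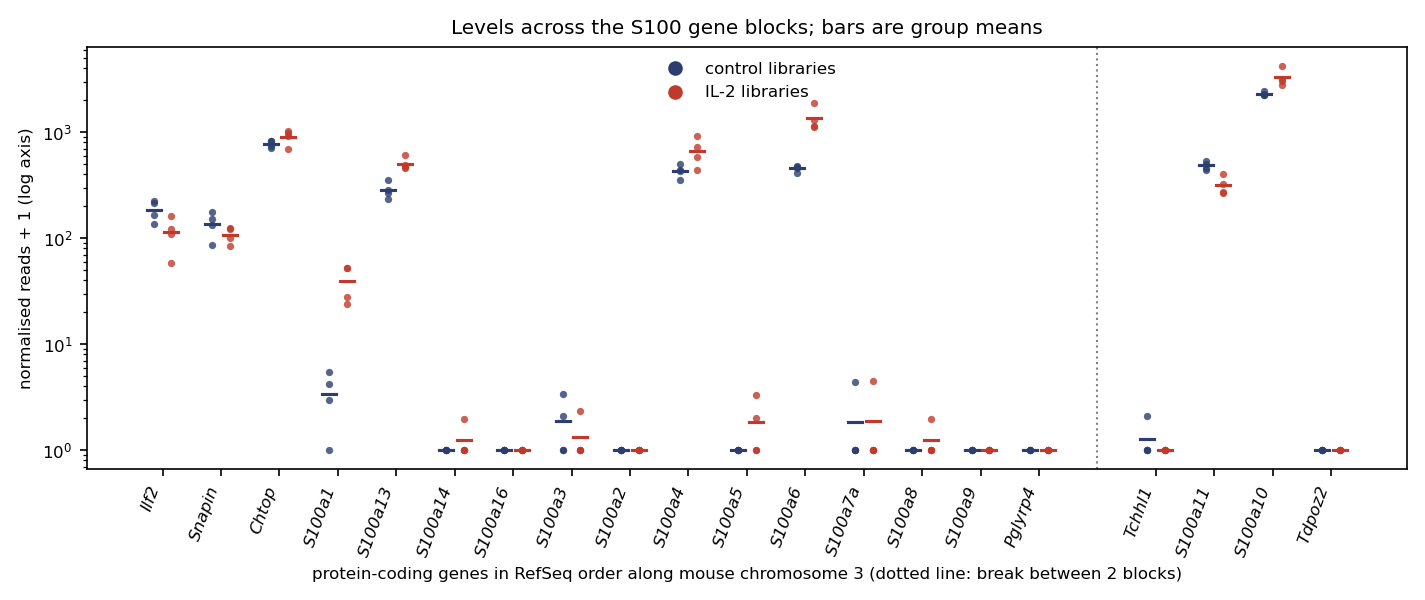
Normalised reads plus 1 (log axis) of protein-coding genes in RefSeq order along mouse chromosome 3, with 1 point per library (blue control, red IL-2) and bars at group means. The members S100a13, S100a4, S100a6, S100a11 and S100a10 stand well above S100 genes at or near 0, S100a1 lies between, and S100a11 is the expressed S100 gene with IL-2 below control.

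Promoter windows were at hand for 8 of the 10 members, not for S100a10 and Anxa6. They were searched on both strands for 4 motifs. The STAT motif TTCNNNGAA, in 8.30% of 32851 mouse promoter windows, was in 0 of the 8. The AP-1 motif TGANTCA, in 7.81% of windows, was in those of Anxa2 and S100a11. The letters TATAAA, in 13.6%, were in Anxa1, Anxa2 and S100a4, and the GC box GGGCGG, in 35.7%, in Anxa2, Anxa7 and S100a11. The windows of Anxa2 (chr9:69453433-69453732, plus strand), S100a11 (chr3:93520246-93520545, plus strand) and S100a6 (chr3:90612644-90612943, plus strand, all GRCm38.p6) are shown because Anxa2 and S100a11 hold the same AP-1 and GC box letters with opposite differences in reads, and S100a6 holds none of the 4 motifs. Capitals mark the motifs, and the start site is the first base after the 250 that precede it.
Anxa2: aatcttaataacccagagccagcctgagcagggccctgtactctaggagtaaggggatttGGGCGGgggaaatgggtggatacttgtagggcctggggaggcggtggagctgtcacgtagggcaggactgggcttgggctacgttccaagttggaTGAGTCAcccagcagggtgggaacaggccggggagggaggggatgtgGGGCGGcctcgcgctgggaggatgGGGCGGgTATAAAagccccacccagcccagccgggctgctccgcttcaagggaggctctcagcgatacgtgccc
S100a11: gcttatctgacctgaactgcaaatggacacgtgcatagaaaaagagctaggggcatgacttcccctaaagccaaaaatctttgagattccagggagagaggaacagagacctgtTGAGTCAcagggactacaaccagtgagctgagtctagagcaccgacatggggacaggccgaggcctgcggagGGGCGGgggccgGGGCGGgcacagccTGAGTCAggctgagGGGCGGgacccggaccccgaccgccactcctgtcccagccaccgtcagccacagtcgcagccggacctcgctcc
S100a6: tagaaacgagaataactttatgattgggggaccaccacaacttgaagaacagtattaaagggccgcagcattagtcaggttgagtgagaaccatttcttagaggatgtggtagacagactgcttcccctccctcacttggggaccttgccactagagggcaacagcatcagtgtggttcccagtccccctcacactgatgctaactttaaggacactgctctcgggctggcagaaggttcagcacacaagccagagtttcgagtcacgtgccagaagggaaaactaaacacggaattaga
The AP-1 letters read TGAGTCA in both, starting 95 bases before the start site in Anxa2 and 136 and 38 bases before it in S100a11. Such matches describe the letters and do not show binding.

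Of 25 genes on a list of proteins that bind S100 proteins or annexins, and their receptors, 9 were tested, 1 rose, 1 fell and 7 did not pass. The share called was 22.2%, beside 31.4% of all tested genes, and the median difference was -0.01 in both. Ahnak, a giant scaffold held at the membrane by the S100a10 and Anxa2 complex, went from 20972 ± 1050 reads to 30782 ± 4405, but did not pass after quantile normalization. Ahnak is also on the effector-associated list described below, whose values are given without p, so no p is given for it. S100pbp, which encodes an S100P-binding protein, fell from 389 ± 29.7 to 236 ± 25.1 (limma adjusted p = 0.00140). Cacybp, Myh9 and Sri, partners of S100a6, S100a4 and Anxa7, had limma adjusted p of 0.0873, 0.919 and 0.265. The S100 receptor genes Ager and Tlr4 had at most 55.3 and 20.2 reads in any library.

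Other EF-hand proteins gave 4 rises and 2 falls among 21 tested genes, with 15 not passing, a share called of 28.6% beside 31.4% of all tested genes. Rcn1, a calcium-binding protein of the endoplasmic reticulum, rose from 386 ± 104 to 1107 ± 110 reads (limma adjusted p = 1.46e-05). The calpain genes Capn2 and Capns1 rose 1.49-fold and 1.30-fold. Actn1, a crosslinker of actin, fell from 1088 ± 75.3 to 425 ± 112 (limma adjusted p = 3.37e-05), and Stim2, a sensor of stored calcium, from 1033 ± 45.2 to 826 ± 48.6.

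Among genes of phospholipid scrambling and membrane repair, 3 rose and 2 fell of 11 tested, beside 16.8% and 14.6% of all tested genes. Capn2, Chmp2a (690 ± 41.1 with IL-2 and 524 ± 35.7 in controls) and Pdcd6ip rose, and the scramblase gene Ano6 and the flippase subunit gene Tmem30a (733 ± 17.3 and 906 ± 57.6) fell. The calls of Pdcd6ip and Ano6 were weak: they were lost in 10 of 16 and 7 of 15 other settings, and 3 of the 11 genes passed without IL-2 library 41, IL-2 library 44, control 46 or control 48.

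A list of 19 genes that are often high together with S100a4 and S100a6 in effector and memory T cells split. Of 17 tested, 10 rose, 5 fell and 2 did not pass, beside 16.8% and 14.6% of all tested genes, and the median difference was 0.35 beside -0.01. Several of these genes were known to differ in these data when the list was written. Nothing is therefore read from the count, and values are given here without p. Vim, of intermediate filaments, rose from 4083 ± 286 reads to 12782 ± 1909, and Tagln2, an actin-binding protein, from 508 ± 65.6 to 1299 ± 195. Lgals1 rose 2.70-fold and Capg, which caps actin filaments, 1.74-fold. The genes that fell included receptors, namely Ccr2 from 917 ± 134 to 339 ± 70.6, the integrin chain gene Itgb1 from 2394 ± 118 to 1380 ± 149 and Cd44 from 1200 ± 70.7 to 758 ± 115. Cxcr3 (161 ± 28.4 with IL-2 against 424 ± 44.9) passed the filter through the 4 controls and 0 of the IL-2 libraries, so it had to differ, and without it 4 of 16 fell.

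**Figure D5:**
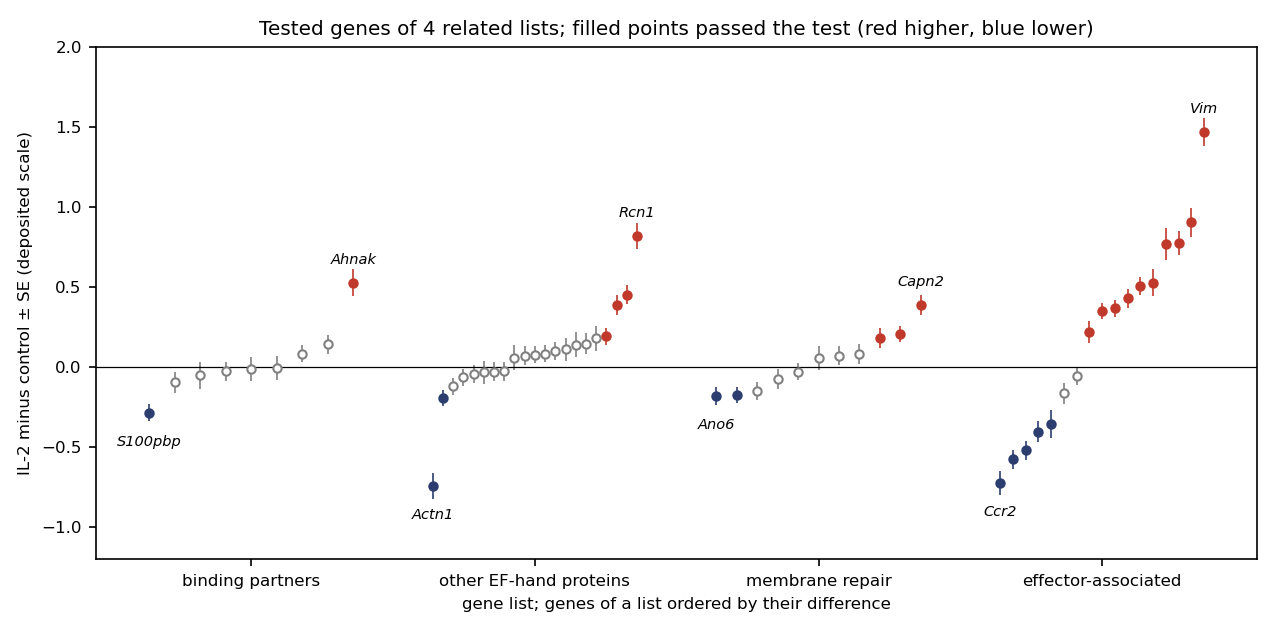
IL-2 minus control ± SE on the deposited log2-like scale for tested genes of 4 lists (partners, other EF-hand proteins, membrane repair, effector-associated genes), ordered within each list; filled points passed the limma test (red higher, blue lower). Each list holds filled points above and below 0, from Actn1 and Ccr2 at the bottom to Vim at the top.

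S100 proteins and annexins are also abundant in other cells, so markers of these were summed. Monocyte, macrophage and dendritic cell markers were lower with IL-2 (1077 to 1337 against 1897 to 2132 reads over 15 genes, exact two-sided permutation p = 0.0286, the smallest that 4 against 4 libraries allow). Without Ctss, which T cells also express, that difference was -12.4 reads (exact permutation p = 0.686), and Cd14, Siglech and Cd209a were at 0 in all libraries. At low reads, Lyz2 (0 with IL-2, 5.55 to 14.5 in controls) and Adgre1 (at most 2.32 against 2.72 to 7.80) had separate groups. The remaining markers of this list overlapped between groups. Neutrophil markers were higher with IL-2 (164 to 239 against 47.9 to 92.0 reads over 10 genes), most of it Ltf, which had 126 to 180 reads against at most 3.59. S100a9, Ly6g, Retnlg, Camp and Mmp8 were at 0, and without Ltf the difference was -28.6 reads (exact permutation p = 0.0571). B cell markers (127 to 241 against 503 to 613), CD8 T and natural killer cell markers (67.0 to 134 against 135 to 247) and stromal and endothelial markers (983 to 1185 against 1267 to 1537) were lower with IL-2, each with an exact permutation p of 0.0286, and 0.0327 adjusted over the 8 lists. The CD8 T and natural killer cell sums nearly met, at up to 134.5 reads with IL-2 and from 134.97 in controls. Their exact permutation p was 0.0571 when any 1 IL-2 library, control 45 or control 47 was left out. Without Pecam1 the stromal difference was -4.54 reads (exact permutation p = 0.543). Platelet and red cell markers stood at 15.6 to 39.5 and 17.9 to 107 (exact permutation p = 0.286). The part of other cells in the members' values was not tested, and in sorted bulk RNA a change in the share of cells cannot be told apart from a change in RNA per cell.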

How the data were processed

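RNA of flow-sorted splenic Tregs was sequenced as strand-specific libraries, per the labels' protocols. The deposited table holds 1 variance-stabilised value per gene and library, which the authors gave on a log2-like scale, and its columns were matched to samples by library number. The submitters' processing notes list Salmon, DESeq2 and GRCm39, and the annotation and filters used are not given here.

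To return to reads, the lowest deposited value, 8.69, was taken as 0 and the parametric variance-stabilising formula was inverted. The smallest of the 5 commonest low values of each library was taken as 1 read. The 5 values of each library, 40 in all, then came out as whole multiples of it (tolerance 0.1%). For the smallest of each library this holds by definition. Estimated depth was 4953547 to 6399418 reads per library. Low values are compressed on the deposited scale, where 1 unit above the lowest value is 206 normalised reads. Folds are ratios of group means of normalised reads.

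Genes at least 1 above the lowest value in at least 4 libraries (5261) entered a limma fit (moderated by eBayes with an intensity trend), IL-2 minus control, adjusted by Benjamini-Hochberg over all genes, threshold 0.05. The step was tested on simulated data. The fit on log2 reads plus 5 (10777 genes) was added after seeing the data. Marker sums were compared by exact permutation over 70 splits. Alternatives were no filter, a stricter filter (2 above the lowest value), quantile normalization, median centring, no trend, robust fitting, log2 reads, and leaving out each library. Words of 31 bases were compared over GENCODE vM21 transcripts. Promoters are from RefSeq (GRCm38.p6).

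The members and lists were chosen with earlier results of these data known. Named genes are the members, other family genes above the lowest value, up to 4 called genes per list and direction, the 3 genes most like each member, and the genes beside each S100 member. One gene that this rule names is not reported here. The software was R (4.3.3) with limma (3.58.1), and Python (3.11.15) with pandas (2.3.3), numpy (2.4.6) and, for plots, matplotlib (3.10.9).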

Additional observations from a re-analysis of the deposited data

Results flagged for a closer look

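In groups of 4 libraries, a library counted as far from the others when its gap to the nearest, divided by the group's range, exceeded Dixon's 95% critical value, which chance passes in about 1 in 20 groups. Of 86 groups of values checked, 6 did. IL-2 library 44 stood apart with 445 normalised reads of Ccr2, a sum of 21934 reads over the proliferation markers and a sum of 39.5 over the platelet and red cell markers, each the highest of its group. IL-2 library 42 was the highest of its group for Tmem30a at 759 reads. Control library 45 was the lowest for Chmp2a at 471 reads, and control library 48 the lowest for Itgb1 at 2218 reads.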

How the results depend on the processing

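No paired analysis was possible because the IL-2 and control libraries share no replicate number. The stricter filter called 737 genes (380 higher, 357 lower) against 1650, 1 partner gene against 2 and 2 membrane genes against 5. It tested fewer genes. Quantile normalization also left 1 partner gene, and the cause was not tested. Among other family genes 1 was called, against 0, with no filter. With the lower filter on log2 reads 1 was called, S100a1. It passed that filter through the 4 IL-2 libraries and 0 of the controls, so it had to differ and nothing is read from its call. Leaving out each library gave 1378 to 1535 genes, 2 partner genes, 6 to 7 EF-hand genes, 3 to 4 membrane genes, 14 to 15 effector-associated genes, 0 other family genes and 6 to 7 marker lists. Without each list's most abundant gene, 3 of 8 marker sums passed against 7, and the neutrophil difference turned to -28.6 reads. Reads below the filter limit what could be tested for low genes such as Anxa1.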
